A study of Mus musculus with 4 samples.

Results

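Gene expression in the liver was compared between male mice of 8 and 4 months of the inbred laboratory strain C57BL/6J, an interval within young and middle adult life. The series holds 4 microarrays, 1 for each of the ages 4, 8, 13 and 21 months, and this comparison rests on 2 of them. Every group was male, C57BL/6J and fed a low-fat diet ad libitum, so the labels set the groups apart by age alone. Each array was hybridised with liver RNA pooled from 6 mice, and a pool hides the spread between its mice. Genes were taken from probe sets, groups of short probes, with 1 annotated gene symbol. The probe set with the highest mean stood for its gene, and genes with a mean log2 level over the 4 arrays of at least 3.74, the median of the probe sets, were kept. This left 11587 genes of 18193. With 1 array per age there is no replicate and no test, so each difference is only a size, taken between 2 pools. Differences are log2 values at 8 months minus 4 months, where 1 is 2-fold, and levels are log2 values that can be compared between ages for a gene but not between genes.

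The adult liver is mostly made of hepatocytes, which secrete plasma proteins, store and release glucose and fat, make bile acids and urea, and break down drugs. Kupffer cells, the resident macrophages, line its sinusoids, and duct cells, endothelium, stellate cells and lymphocytes make up the rest. Much of hepatocyte transcription follows the time of day through the circadian clock, and the state of feeding and stress through insulin, glucocorticoids and fatty acid receptors. Neither the hour of collection nor the feeding state is given in the sources used here. In bulk tissue fewer cells of a type and less RNA per cell cannot be told apart.

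The pools were close to each other at the 2 ages. The differences of the kept genes had a median of 0 and an SD of 0.177, and 88.5% of the genes lay within 0.25 of 0. At least 2-fold higher at 8 months were 12 genes, 0.104% of those kept, and at least 2-fold lower were 3 genes, 0.0259%. At least 1.5-fold higher were 58 genes, 0.501%, and at least 1.5-fold lower were 41, 0.354%. Past a log2 difference of 0.32 in size, 375 genes were higher, 3.24%, and 359 lower, 3.1%. Above 0 lay 47.5% of the kept genes and below 0 lay 48.7%, and these shares are the background for the gene lists below. The spread of the difference narrowed with level, from an SD of 0.208 in the 2901 genes of lowest level to 0.135 in the 2896 of highest level. Different probe sets of 1 gene are the closest there is to a repeat measurement. They lay around their gene's mean with an SD of 0.151 over 4795 genes, which is a spread of the array and not of the mice. Of the 58 genes at least 1.5-fold higher, 14 had a further probe set above the level filter, and in all 14 at least 1 of these was higher too. Not all were, since Ighm had others at -0.21 and -0.06. Of the 41 lower genes 15 had a further probe set. At least 1 was lower in 11 genes, and in 3 genes all were higher.

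The labels and the arrays were checked on known genes. Hepatocyte products were near the top of the scale, with albumin (Alb) at 13.49 at 4 months and 13.43 at 8 months and transthyretin (Ttr) at 13.12 and 13.10. The Y-linked Eif2s3y read 7.13 and 7.19, while Xist, which is made from an inactive X chromosome, read 4.47 at both ages. The 16 spike-in probe sets differed by 0.05 on average, from -0.03 to 0.13. The 3′ minus 5′ difference of Gapdh, a measure of RNA integrity, was 0.18 and 0.21, and that of Actb 1.13 and 1.16, so the ages were alike in both. At the level filter, the genes just inside, Bbs4, Ism1 and Morrbid, differed by 0.10, -0.01 and 0.40, and those just outside, Chic1, Pou3f4 and Prdm6, by 0.03, 0.20 and 0.04.

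**Figure D1:**
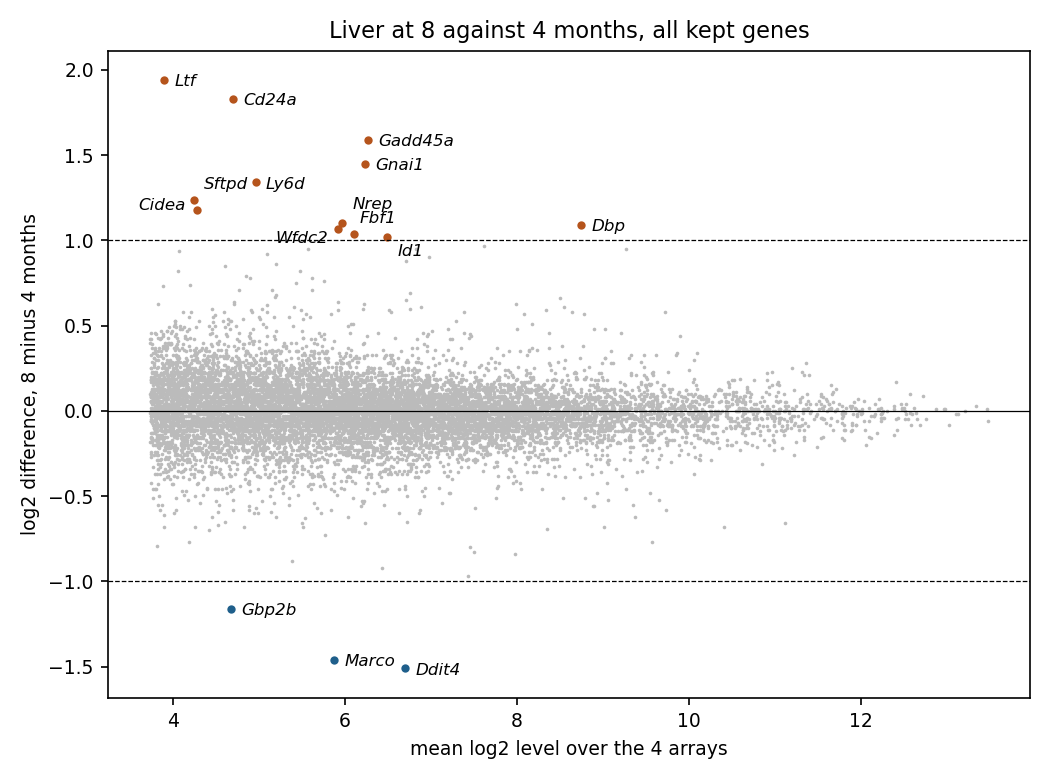
Log2 difference at 8 minus 4 months (vertical axis) against the mean log2 level over the 4 arrays (horizontal axis), 1 point per kept gene, with dashed lines at 2-fold. The 12 genes at least 2-fold higher and the 3 at least 2-fold lower are coloured and named, and the remaining genes form a band around 0 that is wider at low levels.

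The largest differences belonged to a small, mixed set of genes, and several of them were high at 8 months and at no other age. Ltf, which encodes the iron-binding secreted protein lactotransferrin, read 3.28, 5.22, 3.53 and 3.56 at 4, 8, 13 and 21 months, 3.84-fold higher at 8 than at 4 months, and it passed the level filter only through its 8-month value. Cd24a, a surface glycoprotein of duct and progenitor cells, read 4.22, 6.05, 4.21 and 4.32, a 3.56-fold difference that another of its probe sets gave as 1.92 in log2. Ly6d, a surface protein of epithelia and early lymphoid cells, read 4.45, 5.79, 4.67 and 4.94. In these 3 genes the 8-month array stood above the other three, and the latter lay within 0.5 of each other. Sftpd, an innate immune lectin first known from lung, was 3.72, 4.96, 4.32 and 3.98. Fbf1, a protein of the base of cilia, was 5.69, 6.73, 6.11 and 5.88, and Id1, an inhibitor of basic helix-loop-helix factors and a target of bone morphogenetic protein signalling, was 6.10, 7.12, 6.25 and 6.48. In these 3 the lowest level was at 4 months and the highest at 8 months.

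A second set was low at 4 months and stayed above that level later. Gadd45a, a stress and DNA damage response gene, read 5.15 at 4 months against 6.74, 6.52 and 6.67 at the later ages, 3.01-fold higher at 8 months. Gnai1, an inhibitory G protein subunit, read 5.45, 6.90, 6.56 and 6.03, and its 2 other probe sets differed by 1.48 and 0.90. Nrep read 5.37, 6.47, 6.30 and 5.75, and Wfdc2, a secreted protease inhibitor-like protein of epithelia, read 4.99, 6.06, 6.10 and 6.54. In each of these 4 genes the 4-month array was the lowest. Cidea, which promotes the fusion of lipid droplets, read 2.69, 3.87, 3.84 and 6.71, so that its 2.27-fold difference at 8 months was followed by a larger one at 21 months. Its values at 4 and 8 months lie near the low end of the scale, and it passed the filter through its level at 21 months.

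The 3 genes at least 2-fold lower at 8 months were each near or above their 4-month level at the later ages. Ddit4, which restrains the growth regulator mTOR and is induced by glucocorticoids and low oxygen, read 7.10, 5.59, 6.84 and 7.27, 2.85-fold lower at 8 months. Marco, a scavenger receptor of macrophages, read 5.88, 4.42, 6.75 and 6.46, and its other probe set gave -0.62 against -1.46 here. Gbp2b, an interferon-induced GTPase, read 4.38, 3.22, 5.33 and 5.78. In all 3 genes the 8-month array was the lowest of the 4.

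**Figure D2:**
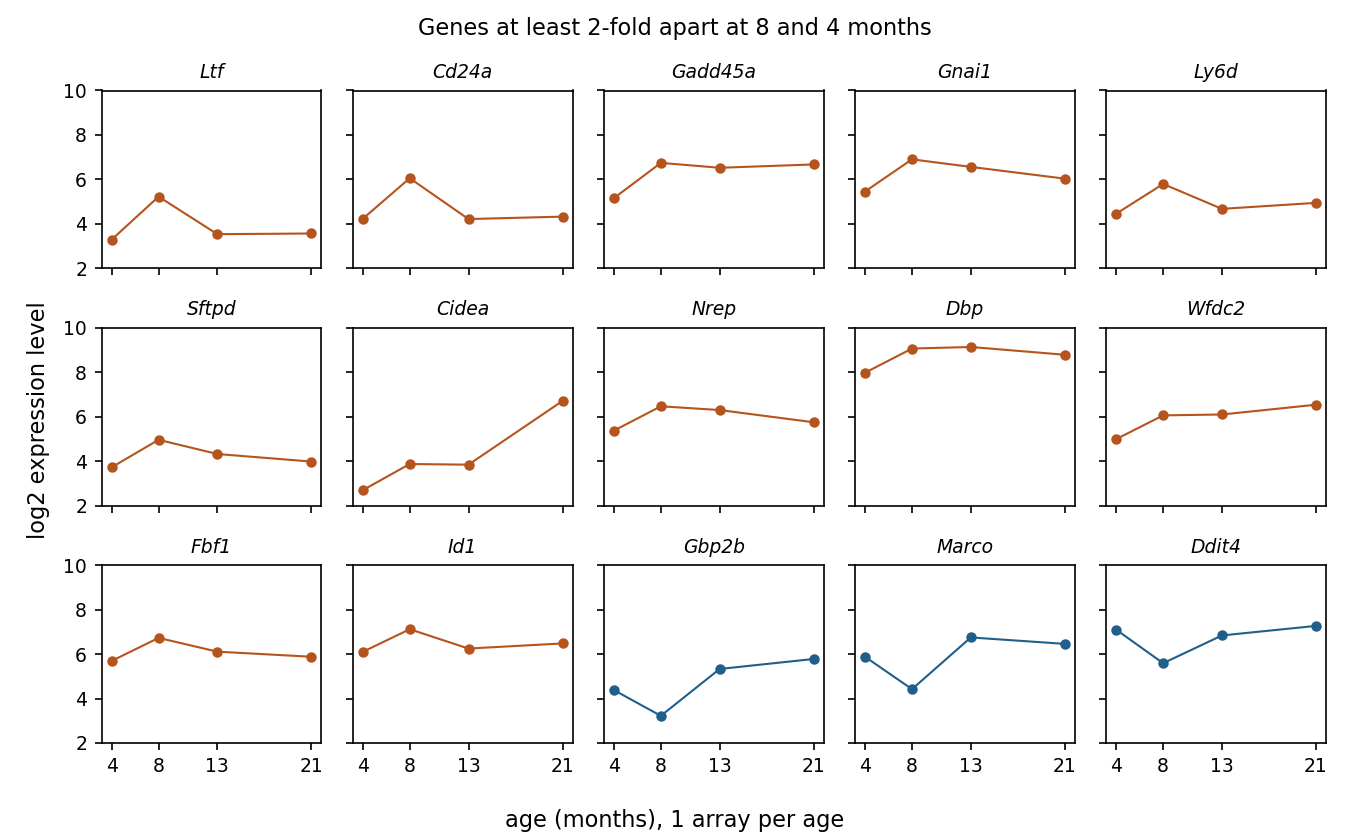
Log2 level (vertical axis, the same in every panel) at 4, 8, 13 and 21 months (horizontal axis, months), 1 panel per gene and 1 point per array, for the 15 genes at least 2-fold apart at 8 and 4 months. Ltf, Cd24a and Ly6d peak at 8 months, Gadd45a and Gnai1 stay above their 4-month level, and Ddit4, Marco and Gbp2b have their lowest point at 8 months.

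Of 58 gene lists described by counts and a median, 12 were one-sided. A list was called one-sided when it had at least 5 kept members, a median at least 0.1 from 0, and at least 3 in 4 members on that side. Higher at 8 months lay 5 lists, of lipid droplet proteins, PPAR-alpha targets, bile duct epithelium, B and plasma cells, and T and NK cells. Lower lay 7 lists, of macrophages, antigen presentation, interferon response, periportal genes, glucocorticoid targets, metallothioneins with zinc transporters, and the urea cycle. The medians were small beside the single genes above, and no list median reached 0.35 in either direction.

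**Figure D3:**
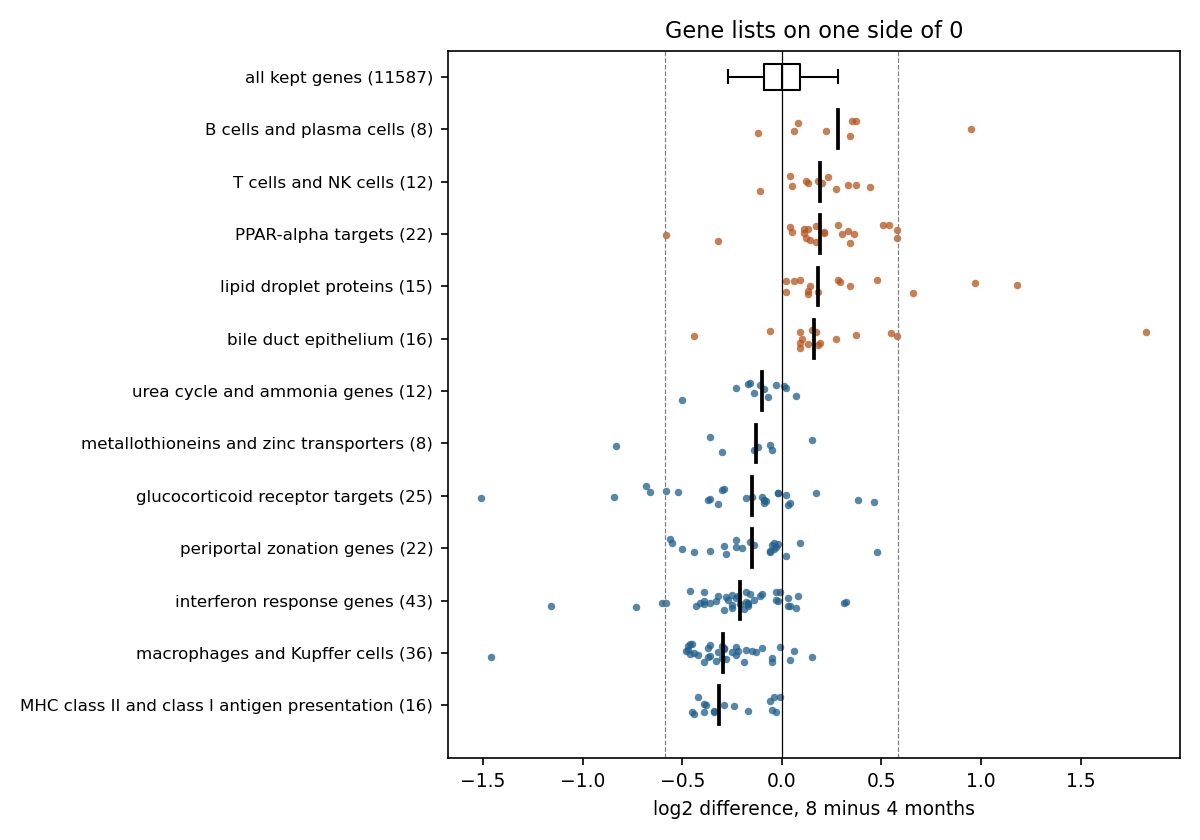
Log2 difference at 8 minus 4 months (horizontal axis) for each kept member of the 12 one-sided lists, with the number of kept members in brackets, a black bar at the list's median and dashed lines at 1.5-fold. The top row is a box plot of all 11587 kept genes with whiskers from -0.27 to 0.28, the range that leaves out 5% of the genes at each end. Lists are shown because they met the rule, so the side on which they lie was fixed by that choice.

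Macrophage markers were lower at 8 months over most of the list. Of 37 markers on the array 36 were kept, 33 lay below 0 and 3 above, and the median was -0.295, against 48.7% of all kept genes below 0 and a median of 0. The mean level of the list was 6.70 at 4 months and 6.41 at 8 months, and no marker read 0. Only Marco was at least 1.5-fold lower, while the list's median lay below -0.27, the value that 5% of all kept genes lie under. Csf1r, the receptor for the growth factor that macrophages need to survive, differed by -0.48, and its other probe sets lay between -0.55 and -0.41. Adgre1, which encodes the F4/80 antigen, differed by -0.47 and Cd163, a receptor for haemoglobin with haptoglobin, by -0.47. Markers that set Kupffer cells apart from other macrophages were on the same side. Cd5l differed by -0.46, Vsig4, a complement receptor, by -0.39, Timd4, which binds dying cells, by -0.37, and Clec4f, a lectin of mouse Kupffer cells, by -0.36. The C1q subunits, made by tissue macrophages, differed by -0.46 (C1qa), -0.42 (C1qb) and -0.44 (C1qc). The members above 0 were Ms4a7 at 0.15, Clec7a at 0.06 and Fcgr1 at 0.04.

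**Figure D4:**
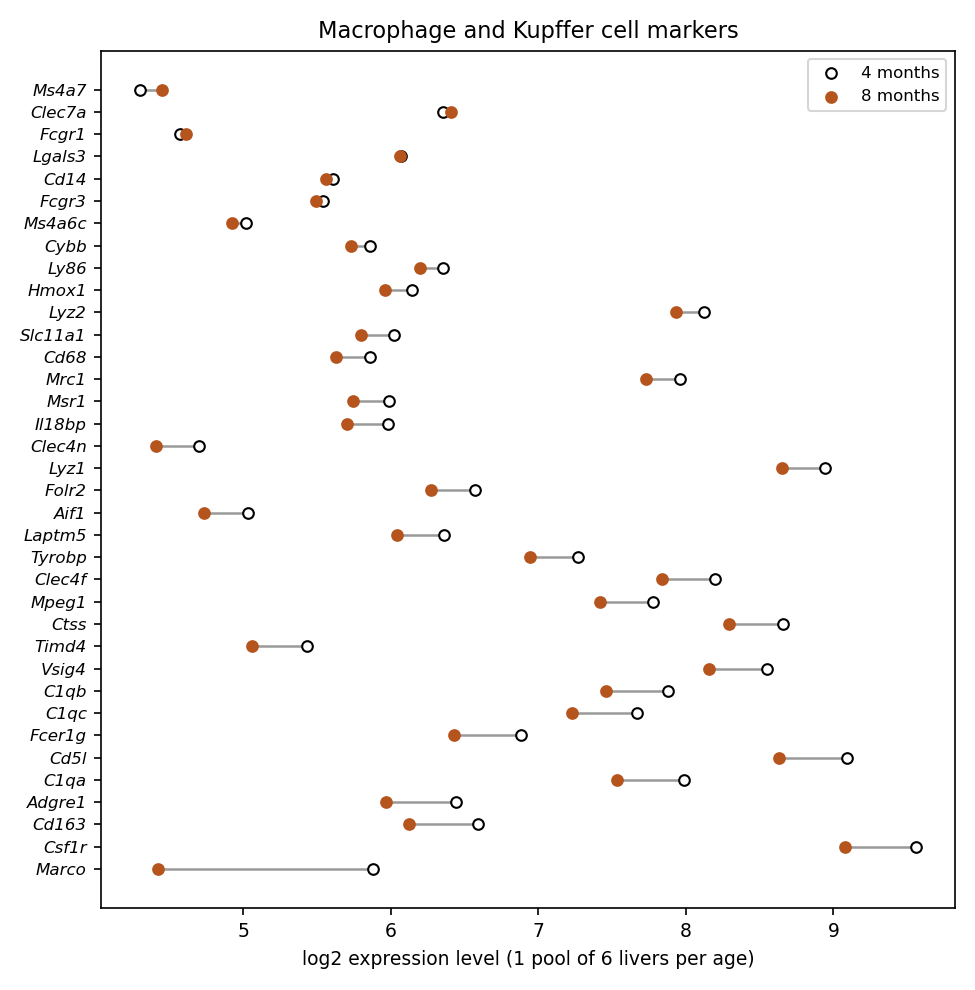
Log2 level (horizontal axis) of the 36 kept macrophage and Kupffer cell markers at 4 months (open points) and 8 months (filled points), 1 pool of 6 livers per age, ordered by the difference. The filled point lies left of the open one in 33 genes, with the longest line at Marco, and levels of different genes are not comparable.

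Further genes with a known place in myeloid cells and sinusoids were among the largest lower values. Clec4a3, a C-type lectin of macrophages, differed by -0.77. Fpr2, a formyl peptide receptor, read 5.49, 4.86, 5.61 and 6.17, and Hcls1, a cytoskeletal adaptor of blood cells, read 4.40, 3.78, 4.65 and 4.98. In both the 8-month array was the lowest. Lyve1, the hyaluronan receptor of liver sinusoids, read 6.81 at 4 months and 5.89 at 8 months, a difference of -0.92, and its other probe set gave -0.43. The endothelial list was not one-sided: of its 28 members 8 lay above 0 and 19 below, Lyve1 among the latter, with a median of -0.05. Stab2 and Stab1, the scavenger receptors that define sinusoidal endothelium, differed by -0.17 and -0.14. Neutrophil markers were not lower as a list, with 5 of 9 kept members above 0, 4 below and a median of 0.03. On the lower side S100a8, S100a9 and Elane differed by -0.09, -0.16 and -0.15. On the higher side were Lcn2 at 0.46 and Ltf, a protein of neutrophil granules as well as of epithelia, at 1.94. The part of any of these cells in the difference was not tested.

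Genes of antigen presentation were lower in every kept member. All 16 lay below 0, with a median of -0.315, and none was at least 1.5-fold lower. The class II chains H2-Ab1, H2-Eb1 and H2-Aa differed by -0.45, -0.42 and -0.39, and Cd74, the invariant chain that guides them, by -0.38. On the class I side Tap2 and Tap1, which carry peptides into the endoplasmic reticulum, differed by -0.44 and -0.34 and Tapbp by -0.34. The class I heavy chains H2-K1 and H2-D1 and their partner B2m lay close to 0, at -0.03, -0.06 and -0.05. The lower values were thus larger in class II and in peptide transport than in the class I molecules, without a test of that contrast. Class II molecules are made mainly by macrophages, dendritic cells and B cells. Dendritic cell markers had a median of 0.05 over the 7 kept of 13 on the array, and B cell markers were higher, as given below. The part of any of these cells in the lower class II values was not tested.

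Interferon response genes were lower at 8 months in most members. Of 43 kept genes 36 lay below 0 and 7 above, against 48.7% of all kept genes below 0, and the median was -0.21. At least 1.5-fold lower were 3, against 0.354% of all kept genes, and 0 were at least 1.5-fold higher. Usp18, which dampens type I interferon signalling, read 5.70 and 4.97 at 4 and 8 months. Gbp7 read 6.41 and 5.81, and its other probe set gave -0.21. Cxcl9, a chemokine induced by interferon-gamma, differed by -0.58, and its other probe set by -0.07. The guanylate-binding proteins, GTPases that act against microbes inside cells, were all lower: 6 of 6 kept Gbp genes lay below 0, from -1.16 to -0.32 with a median of -0.425. This family was chosen after its values were seen, and its members are close copies that may share probes. Among the transcription factors of the response Irf9 differed by -0.39, Irf1 by 0.04 and Irf8 by 0.07. Ifi27 at 0.31 and Herc6 at 0.32 lay on the other side, and the probe sets of Herc6 ranged from -0.27 to 0.35. At the later ages the levels were higher: Ifi47, an interferon-gamma-induced GTPase, read 7.74, 7.33, 8.09 and 8.79, and Irgm2, another, read 7.55, 7.16, 8.34 and 8.52. In both the 8-month array was the lowest and the 21-month array the highest.

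The promoters of the interferon genes were searched for the letters GAAANNGAA, a short form of the interferon-stimulated response element, on both strands. The window ran from 250 bases before to 50 bases after each gene's start in RefSeq's GRCm38.p6 annotation, and 9348 of the 11587 kept genes had a promoter in the table. The motif was present in 20 of 33 interferon gene promoters, 60.6%, against 8.27% of all kept genes with a promoter. Of the 20 genes 19 lay below 0 and 1 above, with a median difference of -0.26, against -0.17 for the interferon genes without it. Of all 773 kept genes with the motif 399 lay below 0 and 351 above, so the letters alone did not mark lower genes. The 250 bases before the start are shown for the 3 Gbp genes with the lowest values among those with a match, with the motif in capitals, to let the position be compared between neighbours in 1 gene cluster.
Gbp2b, chr3:142594597-142594846, plus strand, GRCm38.p6: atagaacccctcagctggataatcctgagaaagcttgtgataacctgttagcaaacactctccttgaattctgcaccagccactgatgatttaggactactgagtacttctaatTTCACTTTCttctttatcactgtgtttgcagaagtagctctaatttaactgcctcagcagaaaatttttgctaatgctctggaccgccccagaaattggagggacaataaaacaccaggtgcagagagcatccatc
Gbp7, chr3:142530086-142530335, plus strand, GRCm38.p6: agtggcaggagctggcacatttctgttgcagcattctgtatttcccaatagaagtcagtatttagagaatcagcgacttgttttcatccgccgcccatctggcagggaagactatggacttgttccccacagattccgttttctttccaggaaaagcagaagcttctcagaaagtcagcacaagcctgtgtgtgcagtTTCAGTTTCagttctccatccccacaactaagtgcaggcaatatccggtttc
Gbp3, chr3:142559794-142560043, plus strand, GRCm38.p6: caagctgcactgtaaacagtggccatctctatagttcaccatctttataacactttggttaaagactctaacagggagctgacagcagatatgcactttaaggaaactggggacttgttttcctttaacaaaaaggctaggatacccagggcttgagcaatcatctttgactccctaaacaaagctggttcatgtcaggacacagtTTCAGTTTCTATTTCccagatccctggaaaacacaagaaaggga
The motif began 136 bases before the start in Gbp2b, 52 bases before it in Gbp7, and 44 and 38 bases before it in Gbp3, where the 2 matches overlap. A match is a description of the letters and not a binding site.

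Lymphocyte markers were on the other side. For B and plasma cells 7 of 8 kept members lay above 0 with a median of 0.28, and the mean level of the list was 5.09 and 5.37. Ighm, the heavy chain of immunoglobulin M, read 5.46 and 6.41 at 4 and 8 months. It has 11 probe sets on the array, and their mean difference was 0.15, so this value depends on the probe set. Ms4a1, which encodes CD20, differed by 0.37, Jchain by 0.35 and Cd79b, a part of the B cell receptor, by 0.34, while Cd22 differed by -0.12. For T and NK cells 11 of 12 kept members lay above 0 with a median of 0.19. Klrg1 differed by 0.44, Thy1 by 0.37, Klrk1 by 0.33 and the chemokine Ccl5 by 0.27, and the defining T cell receptor partners Cd3e and Cd3d by 0.12 and -0.11. Many markers did not pass the filter, which kept 12 of 24 for T and NK cells and 8 of 15 for B and plasma cells. The T and NK cell list lost its one-sided call with a filter at the 75th percentile, with a median of 0.04. The B and plasma cell list lost it without a filter, with a median of 0.06, and at the 75th percentile, which left too few members.

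Markers of duct epithelium were higher, led by genes that also mark other epithelia. Of 16 kept members 14 lay above 0, the median was 0.16, and the mean level was 5.50 and 5.76. After Cd24a the largest were Mmp7, a protease of duct epithelium, at 4.70 and 5.28, Tff2, a mucosal trefoil peptide, at 4.44 and 4.99, and Cldn4, a tight junction protein, at 3.92 and 4.29. Epcam and Sox9, which define duct cells, differed by 0.09 each, and Krt8 and Krt18, which hepatocytes express too, by 0.09 and 0.17. Cdh1 differed by -0.44. Below the level filter lay Krt19, the duct keratin, which read 3.48, 4.99, 3.32 and 2.99. Dmbt1, a secreted mucosal glycoprotein, read 2.35, 7.30, 2.08 and 1.86 and had the largest difference of any gene on the arrays, 4.95. Both were far above the other ages at 8 months. Elsewhere Dmbt1 was near the low end of the scale, and Krt19 lay below the level filter. The list for gut and gallbladder epithelium had a median of 0.02 over 12 kept members, that for exocrine pancreas 0.155 over 6, and that for kidney and mesothelium 0.03 over 5. The gut and gallbladder list had 23 genes on the array. The level filter left out Chil4, Olfm4 and Cxcl5 among them, which stood higher at 8 months and are given at the end. Among the kept members of these lists Lgals4 at 0.46 and Zg16 at 0.58 were the largest beside Ly6d and Tff2. The part of other epithelium in the 8-month pool was not tested.

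The contractile and stellate cell genes went both ways. Acta2, the smooth muscle actin of activated stellate cells and vessel walls, differed by 0.64, Gfap, a filament of stellate cells, by 0.59, and Tagln, an actin-binding protein of smooth muscle, by 0.47. Of the collagen chains in this list Col5a2 differed by -0.36, Col3a1 by -0.35, Col4a1 by -0.32, Col4a2 by -0.31, Col1a2 by -0.22, Col6a1 by -0.06, Col6a3 by 0.06 and Col14a1 by 0.09. The list as a whole had 19 of 33 kept members above 0 and a median of 0.05. Markers of hepatocytes had a median of -0.02 over 19 genes, of adipose tissue 0, of skeletal muscle 0.05, and of erythroid cells and platelets 0.07.

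The circadian clock differed between the pools in both directions. In the clock, Arntl (BMAL1) and Clock form the activator, the Per and Cry proteins block it, Nr1d1 (REV-ERB-alpha) and the ROR receptors set the level of Arntl, and Dbp, Tef, Hlf and Nfil3 pass the rhythm on. The activators were lower, with Arntl at -0.43 and Clock at -0.25, and so was Nfil3 at -0.34. The other probe set of Arntl gave -0.02, so its value depends on the probe set, while those of Clock ran from -0.37 to -0.09. Several known targets of the activator were higher. Dbp read 7.98, 9.07, 9.14 and 8.79 at 4, 8, 13 and 21 months, 2.13-fold higher at 8 than at 4 months, and its other probe set gave 0.95. Ciart, a repressor of the clock, read 4.98 and 5.93. Per3 differed by 0.71, its 3 other probe sets above the level filter by 0.65, 0.53 and 0.44, and its 2 below it by -0.27 and 0.15. Wee1, the kinase that delays mitosis, differed by 0.88, and Usp2, a deubiquitinating enzyme, read 6.92, 7.50, 8.07 and 7.05. Nr1d1 differed by 0.36, Bhlhe40 by 0.35 and Tef by 0.36, with the probe sets of Tef running from -0.21 to 0.71. Per2 at 0.12 and Per1 at -0.09 stood close to 0, so the 3 Per genes were not alike.

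**Figure D5:**
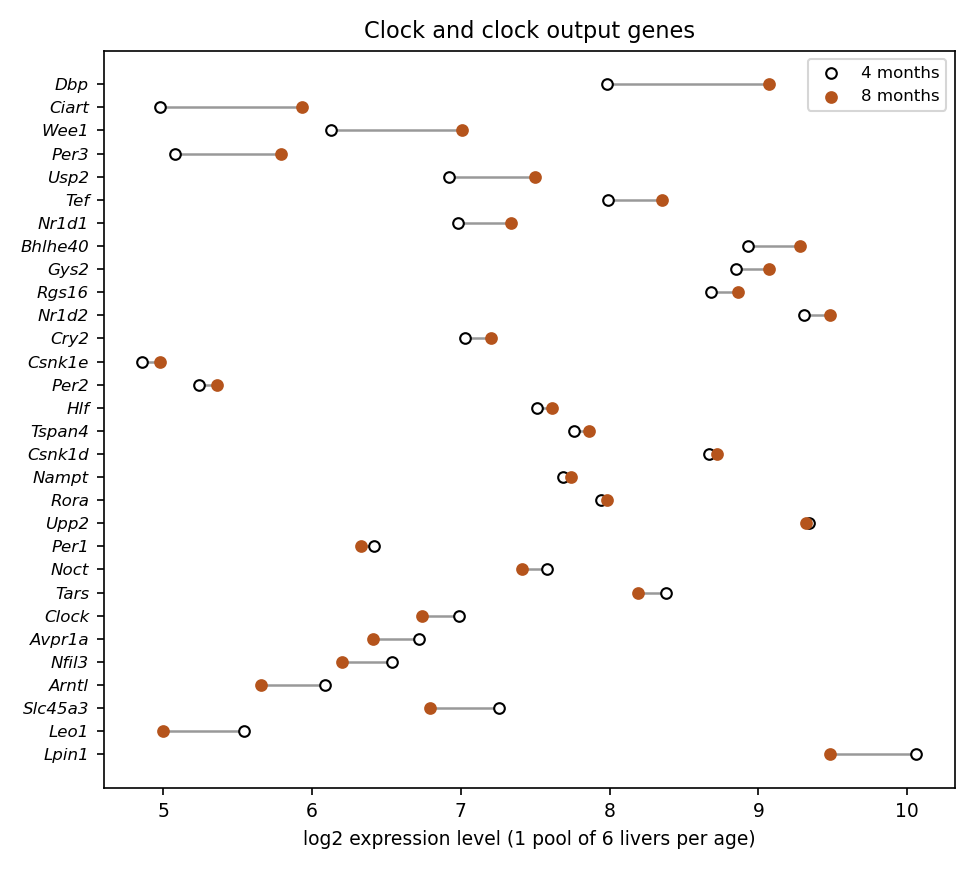
Log2 level (horizontal axis) of the 30 kept clock and clock output genes at 4 months (open points) and 8 months (filled points), 1 pool of 6 livers per age, ordered by the difference. Lpin1, Leo1, Slc45a3 and Arntl lie at one end with lower levels at 8 months, and Dbp, Ciart, Wee1 and Per3 at the other with higher levels.

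As lists, neither set of clock genes was one-sided. Of 13 core clock genes 9 lay above 0, with a median of 0.12, and 1 was at least 1.5-fold higher. Of 17 output genes 10 lay above 0, with a median of 0.10, and 3 were at least 1.5-fold higher, against a background of 0.501%. The lower output genes were Lpin1, which makes diacylglycerol and assists fatty acid oxidation, at -0.58 with its other probe set at -0.56, Leo1 at -0.54, and Slc45a3 at -0.47. In mouse liver Arntl is known to peak near the end of the night and Dbp in the later part of the day. The hours of collection are not given, so hour and age cannot be told apart here.

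Promoters of the clock genes were searched, both strands, for 3 short motifs: the E-box CACGTG of the activator, the D-box TTATGTAA of Dbp, Tef, Hlf and Nfil3, and TAGGTCA, the ROR and REV-ERB element. Of the 30 genes 25 had a promoter in the table. The E-box was in 5 of 25, 20%, against 11.8% of all kept genes with a promoter, and of the 5 genes 3 lay above 0 and 2 below. The D-box was in Per3, against 0.663% of all. The ROR element was in 4 of 25, 16%, against 2.48% of all, and these 4, Leo1, Slc45a3, Arntl and Nfil3, all lay below 0 with a median of -0.45. Of all 232 kept genes with the ROR element 120 lay below 0 and 107 above. The sequences show the 250 bases before the start, motif in capitals, for a higher gene with repeated E-boxes, a higher gene with repeated D-boxes and 2 lower genes with the ROR element.
Ciart, chr3:95882229-95882478, minus strand, GRCm38.p6: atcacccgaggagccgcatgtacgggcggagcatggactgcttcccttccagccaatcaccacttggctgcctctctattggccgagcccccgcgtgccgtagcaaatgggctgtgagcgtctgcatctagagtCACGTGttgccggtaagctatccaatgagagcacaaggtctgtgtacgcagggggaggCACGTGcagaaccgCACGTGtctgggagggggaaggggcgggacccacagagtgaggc
Per3, chr4:151044666-151044915, minus strand, GRCm38.p6: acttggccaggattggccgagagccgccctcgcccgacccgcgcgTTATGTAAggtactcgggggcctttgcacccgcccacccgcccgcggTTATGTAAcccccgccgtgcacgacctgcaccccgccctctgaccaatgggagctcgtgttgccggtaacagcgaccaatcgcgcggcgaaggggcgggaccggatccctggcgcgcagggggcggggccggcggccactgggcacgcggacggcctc
Nfil3, chr13:52981040-52981289, minus strand, GRCm38.p6: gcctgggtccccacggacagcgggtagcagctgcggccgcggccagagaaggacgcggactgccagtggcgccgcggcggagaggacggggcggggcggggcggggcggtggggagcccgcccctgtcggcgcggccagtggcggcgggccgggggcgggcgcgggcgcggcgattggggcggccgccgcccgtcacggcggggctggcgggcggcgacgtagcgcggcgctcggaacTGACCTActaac
Slc45a3, chr1:131970359-131970608, plus strand, GRCm38.p6: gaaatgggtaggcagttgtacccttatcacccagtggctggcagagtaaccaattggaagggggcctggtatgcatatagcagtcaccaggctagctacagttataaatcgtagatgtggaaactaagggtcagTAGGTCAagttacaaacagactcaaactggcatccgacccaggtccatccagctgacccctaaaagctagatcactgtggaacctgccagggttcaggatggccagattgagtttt
Ciart held 3 E-boxes, which began 116, 58 and 44 bases before the start, and Per3 held 2 D-boxes at 205 and 158 bases. The ROR element began 12 bases before the start in Nfil3 and 116 bases before it in Slc45a3.

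Targets of the glucocorticoid receptor were lower at 8 months. Glucocorticoids rise with stress and with the daily cycle and drive the fasting programme of the liver. Of 25 kept targets 19 lay below 0 and 6 above, against 48.7% of all kept genes below 0, and the median was -0.15. At least 1.5-fold higher were 0, and 4 were at least 1.5-fold lower, against 0.354% of all kept genes. Beside Ddit4 these were Tsc22d3 (GILZ), an anti-inflammatory mediator, Igfbp1, which binds insulin-like growth factors and is repressed by insulin, and Tat, which begins the breakdown of tyrosine. Tsc22d3 read 8.54 at 4 months and 7.70, 7.83 and 7.83 later, and its other probe sets gave -0.69, -0.27 and, below the level filter, 0.16. Igfbp1 read 10.76 and 10.08, and Tat 11.47 and 10.81. Got1, an aminotransferase, differed by -0.52 and Cebpd by -0.37. The classical targets were not all lower, since Fkbp5 differed by -0.09, Sgk1 by -0.02, Pck1 by -0.02 and Per1 by -0.09, and Lcn2 at 0.46 and Rgs3 at 0.38 were higher. The receptor gene Nr3c1 differed by 0.03. The call did not hold under 4 of the 8 alternatives, where the list's median came as near to 0 as -0.09.

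The genes that share the control of Ddit4 and Igfbp1 by feeding were mixed. In the mTOR list Ddit4 was the exception, since its 22 kept members had a median of -0.015, 9 of them above 0, and the next lowest were Tsc1 and Tsc2 at -0.15. In the insulin and FoxO list 10 of 21 lay above 0, with a median of -0.01, Insr at -0.26, Irs2 at 0.07 and Foxo1 at 0.07. Among single genes of glycogen metabolism Ppp1r3b read 9.17 and 8.66, Ppp1r3c 8.33 and 7.82, Pygl, the phosphorylase that releases glucose from glycogen, differed by -0.29, and Gys2, the liver glycogen synthase, by 0.22. Ppp1r3b and Ppp1r3c bring a phosphatase to glycogen and favour its storage. Pfkfb3, which makes the activator of glycolysis, differed by -0.66. The gluconeogenesis, glycolysis and glycogen list had 15 of 20 members below 0 and a median of -0.045. Immediate early genes, which respond within minutes to signals and to handling of tissue, went both ways, with Fos at -0.57 and Zfp36 at -0.38 against Ccn1 at 0.71, Nr4a1 at 0.69 and Jun at 0.48. Their list median was 0.04.

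Proteins of the lipid droplet were higher in every kept member. All 15 lay above 0, with a median of 0.18 and 3 at least 1.5-fold higher, against a background of 0.501%. Beside Cidea these were G0s2, an inhibitor of the triglyceride lipase ATGL, at 7.34 and 8.31, and Fitm1, which takes part in droplet formation, with a difference of 0.66. Mogat1, which makes diacylglycerol, differed by 0.48. The perilipins that coat droplets differed by 0.34 (Plin4), 0.29 (Plin5), 0.28 (Plin2) and 0.14 (Plin3). Pnpla2, the lipase ATGL itself, differed by 0.06 and its activator Abhd5 by 0.02. Of the 7 kept adipose markers, Cidea among them, 3 lay above 0 and 3 below, with Lipe at 0.19, Car3 at 0.03, Retn at -0.07 and Fabp4 at -0.08.

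PPAR-alpha targets were higher as a group. PPAR-alpha is the nuclear receptor that senses fatty acids and drives their oxidation. Of 22 kept targets 20 lay above 0 and 2 below, with a median of 0.19, and none was at least 1.5-fold higher. The largest were Vnn1, a pantetheinase, at 0.58, the acyl-CoA thioesterases Acot1 at 0.58 and Acot3 at 0.51, Pdk4, which shuts glucose out of the citric acid cycle, at 0.54, and Acot2 at 0.36. Fgf21, a fasting hormone, differed by 0.30. The receptor Ppara differed by 0.13. The 2 members below 0 were the coactivator Ppargc1a at -0.58, whose other probe sets ran from -0.13 to 0.03, and Angptl4, an inhibitor of lipoprotein lipase, at -0.32. Mitochondrial β-oxidation enzymes lay above 0 in 17 of 19 but by little, with a median of 0.08 and a highest value of 0.19 in Bdh1 and Hadhb.

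Fat synthesis did not share this direction. Of 27 genes of fatty acid and triglyceride synthesis 18 lay below 0 and 7 above, with a median of -0.06. Acss2, which makes acetyl-CoA from acetate, differed by -0.56, although its probe sets ran up to 0.30, Acacb by -0.28, Thrsp by -0.27, Elovl6 by -0.23 and Scd1 by -0.20. Fasn at 0.04 and the regulator Srebf1 at 0.18 lay above 0. Angptl8, an insulin-induced hormone of lipid storage, differed by 0.65. Cholesterol genes were split, with Mvd at 0.35, Hsd17b7 at 0.35 and Dhcr7 at -0.35 and a list median of 0.03. Apoa4 at 0.48 was the only apolipoprotein past 0.3, and the list median was 0.01.

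Amino acid metabolism and periportal genes were lower by small amounts. Hepatocytes near the portal vein hold most urea synthesis and amino acid breakdown. Of 22 kept periportal genes 19 lay below 0, with a median of -0.15, while of 24 pericentral genes 13 lay below 0, with a median of -0.06. Aldh1b1 differed by -0.56, Etnppl by -0.55, Ass1, the urea cycle enzyme that joins citrulline and aspartate, by -0.50, and Hal, which starts histidine breakdown, by -0.36. In the urea cycle list 9 of 12 lay below 0 with a median of -0.10, among them Asl at -0.23, Arg1 at -0.16 and Cps1 at -0.14. That list met the rule at its limit and lost the call under 2 normalizations. In amino acid catabolism 29 of 35 lay below 0 with a median of -0.09. The main hepatocyte regulators stood near 0, with Hnf4a at -0.04 and Cebpa at 0.10, and Onecut1 (HNF6), which opens duct and hepatocyte programmes, was higher by 0.76, with its other probe set at 1.03.

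Drug and bile acid genes held a few large lower values in lists that were otherwise close to 0. Cyp2b10, the classical target of the xenobiotic receptor CAR, read 7.79, 6.82, 7.43 and 7.70, and its other probe sets gave -1.09 and -1.18. Cyp2c55 read 6.39, 5.86, 6.22 and 6.42, and Cyp2c39 differed by -0.46. In all 3 of these genes the 8-month array was the lowest. The receptors themselves, Nr1i3 (CAR) and Nr1i2 (PXR), differed by -0.07 each, and the list of 28 had 23 members below 0 and a median of -0.08. Gstm3, a glutathione transferase, read 9.20 and 8.52, and Cbr3, a carbonyl reductase, differed by 0.60. Cyp7a1, which sets the pace of bile acid synthesis from cholesterol, read 9.52, 8.90, 9.96 and 9.11, with its other probe set at -0.58. Slco1a4, an organic anion uptake transporter, read 8.73 and 8.04, while the bile acid list had a median near 0 of -0.065. P450 and transferase genes have close copies that may share probes.

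Metal and plasma protein genes were lower in a few members. Of 8 metallothionein and zinc transporter genes 7 lay below 0, with a median of -0.13. Mtf1 at -0.06 was among the 7, although its other probe sets above the level filter gave 0.01 and 0.33. Slc39a4, a zinc importer, read 8.05 and 7.22, Mt2 differed by -0.36 and Mt1 by -0.30. Hamp2, a copy of the iron hormone hepcidin, read 9.80 and 9.03, while Hamp itself differed by -0.16. Acute phase proteins had 25 of 34 members below 0 but a median of -0.055, with Orm2 at -0.27 and Serpina3n at -0.22 on one side and Lcn2 at 0.46 and Saa1 at 0.26 on the other.

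Single targets of bone morphogenetic protein and growth hormone signalling were higher. All 4 Id genes were higher, Id1 by 1.02, Id4 by 0.92, Id3 by 0.48 and Id2 by 0.46, although the probe sets of Id2 ran from -0.41 to 0.53 and another of Id4 gave 0.17. This family was chosen after its values were seen. The pathway's own inhibitor Smad6 read 4.70 and 5.11, Smad7 differed by 0.04 and the ligand Bmp6 by 0.24, and hepcidin, which the pathway induces, was not higher. In the growth hormone axis the feedback inhibitors Socs2 and Cish, which STAT5 induces, differed by 0.57 and 0.45, with the probe sets of Socs2 running from 0.00 to 0.74, while Igf1 differed by -0.04. The growth hormone and IGF list as a whole had 8 of 21 members above 0 and 12 below, with a median of -0.02. Male-predominant genes lay above 0 in 15 of 22, with Ugt2b37 at 0.73 and Ugt2b38 at 0.53, and a median of 0.05. Ugt2b37 read 3.62, 4.35, 3.71 and 3.88 at the 4 ages, and it passed the level filter only through its 8-month value. Female-predominant genes lay below 0 in 11 of 19, with a median of -0.09. Mup10, a urinary protein of male liver, read 8.66 and 9.61, while Mup3 and Mup5 differed by -0.11 and -0.09, and the Mup genes are near-identical copies.

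Genes of retinoid breakdown and of replication were each higher in single members. Cyp26a1, which degrades retinoic acid, read 7.60, 8.21, 9.24 and 9.12, and Cyp26b1 5.21, 5.96, 5.81 and 4.76. The replication licensing genes Cdt1, Mcm3 and Mcm2 differed by 0.71, 0.48 and 0.35, and E2f8 by 0.68, while Cdk1, the mitotic kinase, differed by -0.37. The other probe sets of Cdt1 gave 0.29 and, below the level filter, -0.27, and the cell cycle list had a median of 0.03 over 22 genes. The other Gadd45 genes were far from Gadd45a, with Gadd45b at 0.04 and Gadd45g at -0.46. Cdkn1a, the p53 target that stops the cell cycle, differed by -0.10.

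Large housekeeping groups were near 0. The 53 respiratory chain subunits had a median of -0.02, the 30 cytosolic ribosomal proteins 0 and the 31 proteasome subunits 0.01. Among the ribosomal proteins Rpl12 at -0.79 was far from the rest, which ran from -0.13 to 0.13. Its only probe set read 4.39, 3.60, 3.70 and 3.56 at 4, 8, 13 and 21 months. It thus passed the level filter of 3.74 only through its 4-month value, and the difference is that of a dim probe set. Heat shock proteins had a median of 0.02 over 21 genes, and the unfolded protein response list -0.03 over 29.

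The comparison of 21 with 13 months shares no array with that of 8 with 4 months and was set beside it. Across the 11587 kept genes, which are not independent, the differences had a Pearson r of -0.197. Macrophage markers had a median of 0.63 at 21 minus 13 months against -0.295 at 8 minus 4, interferon genes 0.48 against -0.21 and antigen presentation genes 0.27 against -0.315. PPAR-alpha targets had a median of -0.435 against 0.19, and lipid droplet proteins -0.10 against 0.18. Acute phase proteins, near 0 at 8 months, had a median of 0.37 at 21 minus 13 months. Of the 12 one-sided lists 8 had medians of opposite sign in the 2 intervals. The exceptions were duct epithelium at 0.08 against 0.16, B and plasma cells at 0.055 against 0.28, periportal genes at -0.01 against -0.15, and the urea cycle at 0 against -0.10. With 1 array per age none of this could be tested.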

How the data were processed

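Liver RNA of 4 ages was measured on 1 oligonucleotide array each. RNA was extracted with Trizol and biotin-labelled, per the labels' protocols, and each sample pooled 6 mice, per the series description. The authors deposited log2 values of 45101 probe sets, made with RMA (background correction, normalization between arrays and summary of probes), per the submitters' processing notes. No source used here gives its version. RMA brings the arrays' distributions together and compresses differences of dim probe sets. Of the probe sets 64 were controls, 34945 had 1 symbol, 932 several and 9160 none. By gene identifier 34741 matched RefSeq's GRCm38.p6 gene table, which altered 0 symbols, and 204 kept the annotated one. Promoter sequences are RefSeq's.

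The members and all 58 gene lists were chosen with earlier results of these data known. Named were genes at least 2-fold apart, the 25 largest each way, list members at least 1.5-fold apart, up to 6 members of each one-sided list with members past 0.32 in log2 against it, and regulators and controls. Other genes named were chosen after their values were seen. Counting steps were tested on simulated data. Python 3.11.15, pandas 2.3.3 and limma 3.58.1 (alternative normalizations only) were used. Alternatives were the mean over probe sets, 3 filters, 3 normalizations, a 3-fold threshold and list means.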

Additional observations from a re-analysis of the deposited data

How the results depend on the processing

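A count cannot change sign, so only the sizes of the counts were compared between the alternatives. With a gene's probe sets averaged, 26 genes were at least 1.5-fold lower. Without a filter 20 genes were past 2-fold higher, 92 past 1.5-fold higher and 62 past 1.5-fold lower. With a filter at the 75th percentile 7, 26 and 20 genes were. At 3-fold 3 genes were higher and 0 lower. The normalizations moved the median of all genes by at most 0.0125. Of 987 alternative values of named genes 954 moved by less than 0.151, the SD of probe sets around their gene's mean, and the other 33 were all means over probe sets. Many of the 954 could not have moved. The 3 filters cannot change a gene's value, nor can averaging where a gene has 1 probe set. Centring left the values as they were, since both arrays had a median of 3.75. Of the 12 one-sided lists 8 kept their call under all 8 alternatives. Those of B and plasma cells, T and NK cells, the urea cycle and glucocorticoid targets did not. The number of arrays limits the precision. No paired analysis was possible because each age has 1 array.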

Other observations

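Probe sets without a single gene symbol entered no count above. Of 3037 such probe sets above the level filter, 0 passed 2-fold higher at 8 months and 7 passed 2-fold lower, and at the 1.5-fold threshold 20 were higher and 40 lower. The largest difference was -2.03, in a probe set that read 5.90, 3.87, 4.98 and 4.87 at 4, 8, 13 and 21 months.

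Genes below the level filter held further values that stood apart at 8 months. Chil4, a chitinase-like protein of myeloid cells and inflamed epithelium, read 2.68, 4.53, 2.65 and 2.64. Olfm4, a secreted glycoprotein of gut epithelium and neutrophils, read 2.51, 3.70, 2.25 and 2.36, and Cxcl5, a chemokine for neutrophils, 1.81, 3.07, 1.83 and 1.98. Prom1, a membrane protein of duct and progenitor cells, read 3.18, 4.01, 3.07 and 3.01, and Muc1, an epithelial mucin, 3.67, 4.31, 3.36 and 3.47. In all of these the 8-month array was the highest and the other ages lay close together. They were chosen after their values were seen. Chil4, Olfm4 and Cxcl5 belong to the gut and gallbladder list and Prom1 and Muc1 to the duct list, whose counts and medians leave them out.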
